A study of Mus musculus with 8 samples.

Results

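The array carried 3387 stretches of the mouse genome that its design treats as candidate sources of long intergenic noncoding RNA, and these lincRNA regions are described here. A region entered by its name alone: a non-control probe whose name gives chromosome, start, end and strand, on chromosomes 1 to 19, with F for a probe reading as the forward strand and R for the reverse. The rule took 15604 oligonucleotides of 60 bases (60-mers), 7890 F and 7714 R, which is 28.0% of the 55681 non-control probes. Of the 3387 regions, 1042 carried probes of both strands, 1189 only F and 1156 only R. Region lengths ran from 62 bases upward with a median of 7451 bases, and a strand of a region was covered by a median of 3 and at most 10 of the 60-mers. All 15486 members with coordinates in the scanner files lay inside the region they are named for; 118 had no coordinates. Of the regions, 2015 (59.5%) overlapped another named region, so regions are not independent of one another.

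The 8 arrays held 1 hippocampal RNA sample each, 4 from control mice (WT) and 4 from conditional knockout mice (CKO), each group being 3 males and 1 female. The labels give WT as Ctcf wild type and CKO as Ctcf loxP/loxP; mice of both groups were Camk2a-Cre positive, Ribotag positive, C57BL/6, naive and adult, at least 3 months old. The series' own design text describes the controls as Ctcf loxP/loxP instead; the sample labels were followed. Ribosome-bound RNA was pulled down through HA-tagged Rpl22, amplified over the whole transcriptome and hybridised in 1 colour (Cy5). The labels number the samples as biological replicates. Camk2a-Cre acts mainly in excitatory forebrain neurons and also switches on the ribosome tag, so the knockout and the tag share their cells. In such bulk RNA, fewer cells making a transcript and less transcript per cell cannot be told apart.

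CTCF is a zinc-finger DNA-binding protein that, with cohesin, holds chromatin loops and marks boundaries between domains, and it is required in mature neurons for normal gene expression and memory. LincRNAs are transcripts from between protein-coding genes with little or no coding capacity, usually capped and polyadenylated, often less abundant than messenger RNAs and often restricted to a tissue. Some act in the nucleus on chromatin or splicing, others in the cytoplasm, and some are hosts of microRNAs. A pulldown of tagged ribosomes enriches RNA that ribosomes hold, so a lincRNA there can be engaged by ribosomes or carried along.

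The 60-mers that the results turn on are printed 5′ to 3′, as on the array, with positions on mm9. The first pair comes from the chromosome 6 locus with the smallest p among 60-mers higher in CKO; capitals mark the bases that both strands' 60-mers cover, each being the reverse complement of the other there.
chr6:116123643-116124550_F (chr6:116123836-116123895): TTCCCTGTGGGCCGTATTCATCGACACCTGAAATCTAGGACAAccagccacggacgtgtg
chr6:116092274-116144199_R (chr6:116123819-116123878): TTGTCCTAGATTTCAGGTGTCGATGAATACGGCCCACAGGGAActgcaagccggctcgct
The next is the 60-mer with the smallest p among those higher in CKO outside that locus, followed by the one with the smallest p among those lower in CKO, by the rule for named members (neither has capitals).
chr17:24152225-24169870_R (chr17:24161327-24161386): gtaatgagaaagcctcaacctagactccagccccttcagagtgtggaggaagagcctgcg
chr14:61252837-61310872_F (chr14:61310803-61310862): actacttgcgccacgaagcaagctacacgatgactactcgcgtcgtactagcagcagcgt
In the following, capitals mark G and C. An F and an R 60-mer of 1 position are exact reverse complements; the first such pair differed most in measured signal, and the second was the brightest of those whose strands lay within 0.5 on the log2 scale.
chr13:112717680-112733330_F (chr13:112727917-112727976): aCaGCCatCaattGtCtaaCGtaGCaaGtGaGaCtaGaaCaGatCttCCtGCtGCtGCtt
chr13:112717680-112733330_R (chr13:112727917-112727976): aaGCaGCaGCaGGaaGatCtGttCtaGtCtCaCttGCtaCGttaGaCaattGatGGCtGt
chr3:36280098-36347798_F (chr3:36341621-36341680): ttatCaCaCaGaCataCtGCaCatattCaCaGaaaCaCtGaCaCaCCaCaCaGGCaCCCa
chr3:36280098-36347798_R (chr3:36341621-36341680): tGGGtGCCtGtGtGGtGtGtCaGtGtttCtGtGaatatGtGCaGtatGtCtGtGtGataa
The region with the largest measured difference between its strands is shown by its brightest F, its F poorest in G and C, and its dimmest R 60-mer.
chr17:17462450-17488725_F (chr17:17482585-17482644): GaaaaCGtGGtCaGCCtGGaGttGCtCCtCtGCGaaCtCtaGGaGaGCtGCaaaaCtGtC
chr17:17462450-17488725_F (chr17:17482266-17482325): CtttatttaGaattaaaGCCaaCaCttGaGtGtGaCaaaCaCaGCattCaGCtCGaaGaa
chr17:17462450-17488725_R (chr17:17467157-17467216): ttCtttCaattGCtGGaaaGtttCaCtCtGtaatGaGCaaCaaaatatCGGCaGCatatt
The brightest region of all was represented by 1 60-mer, which is rich in C.
chr6:47700758-47717846_F (chr6:47702991-47703050): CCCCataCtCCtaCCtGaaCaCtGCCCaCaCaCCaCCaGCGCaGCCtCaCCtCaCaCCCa
The last pair overlaps microRNA hairpins. Capitals mark bases shared with the RefSeq (GRCm38.p6) hairpins of Mirlet7c-2, of the let-7 family, and of Mir410, from the imprinted cluster on chromosome 12.
chr15:85412264-85549139_F (chr15:85537022-85537081): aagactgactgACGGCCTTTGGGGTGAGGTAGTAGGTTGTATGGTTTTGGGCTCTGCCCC
chr12:110973190-110987668_F (chr12:110981965-110982024): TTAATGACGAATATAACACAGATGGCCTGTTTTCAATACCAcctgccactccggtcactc

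Whether lincRNA regions gave a signal at all was read from the scanner software's flag for a spot well above background. Most did. In WT samples 1 to 4, 80.8%, 79.1%, 79.7% and 75.7% of the members were well above background, and in CKO samples 1 to 4, 74.97%, 77.2%, 68.6% and 77.3%. CKO 3 was the lowest of all, and the ranges of the groups overlapped. The means were 78.8% ± 2.22 in WT and 74.5% ± 4.12 in CKO (SD, n = 4 each), a difference of -4.31 percentage points. Without CKO 3 the difference was -2.33 points; within slide 2 it was -3.33 and within slide 3 -2.72 points, and slide 1 held WT 1 alone. F probes were flagged at 79.6% in WT and 75.2% in CKO and R probes at 78.0% and 73.8%. Probes named by a RefSeq messenger RNA accession (NM_, 26732 probes) were flagged more often on every array, at 83.2% ± 0.943 in WT and 80.8% ± 2.15 in CKO. Negative control spots, which have no target, were flagged at 1.30% to 8.44% of 308 spots on an array.

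**Figure D1:**
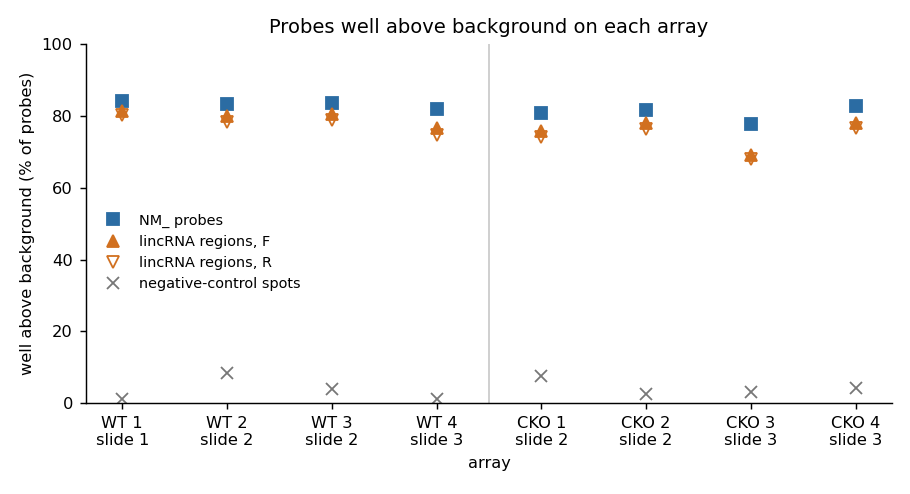
Percent of probes well above background on each array (slide under the array's name), for NM_ probes (squares), lincRNA F (filled triangles) and R probes (open triangles) and negative control spots (crosses). On each array the lincRNA probes lie below the NM_ probes and far above the negative controls, and CKO 3 is lowest, at 68.6% over both strands.

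On all 8 arrays together, 10278 of the 15602 members with complete values (65.9%) were well above background every time, 3027 on some arrays and 2297 (14.7%) on none. The same share was 75.1% for NM_ probes and 69.6% for all probes. By region the picture was broader but uneven. At least 1 60-mer was well above background on all 8 arrays in 3005 of 3387 regions (88.7%), every one of them in 1169 regions (34.5%), and none on any array in 118. Of 2982 regions with more than 1 60-mer, 1061 held both a 60-mer seen on all 8 arrays and one seen on none. Across chromosomes the share on all 8 ran from 55% on chromosome 10 to 73.1% on chromosome 17.

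Levels are given as log2 of the background-corrected, detrended signal minus the array's own 75th percentile, so 0 is that percentile and a step of 1 is a doubling. The median member lay at -2.47, -2.43, -2.37 and -2.95 in WT 1 to 4 and at -2.65, -2.53, -3.14 and -2.81 in CKO 1 to 4. WT 4, CKO 3 and CKO 4, the 3 arrays of slide 3, were the lowest. NM_ medians stayed between -1.52 and -1.43, so the members' median was lower by 0.93 to 1.62, and 61.8% to 65.8% of NM_ probes exceeded it. Over the 12214 members well above background on at least 4 arrays, pairs of arrays correlated at 0.906 to 0.979 (Pearson, across probes that share an array's processing).

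The base composition of the 60-mer went with its signal, more steeply among lincRNA regions than among NM_ probes. Among members with under 35% G and C, 28.1% were well above background on all 8 arrays and their median level was -6.98. The share was 39.7% at 35 to under 40% G and C, 61.1% at 40 to under 45%, 73.3% at 45 to under 50%, 89.6% at 50 to under 55% and 93.2% from 55% up, where the median level was -0.70. NM_ probes went from 49.0% to 94.9% and from -4.01 to 0.06 over the same classes. Level correlated with percent G and C at 0.449 over 15602 members and at 0.322 over 26726 NM_ probes (Pearson, across probes that share 8 arrays). The members were in general not poorer in G and C, with a median of 45% against 41.7% for NM_ probes, and in each class they were dimmer.

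**Figure D2:**
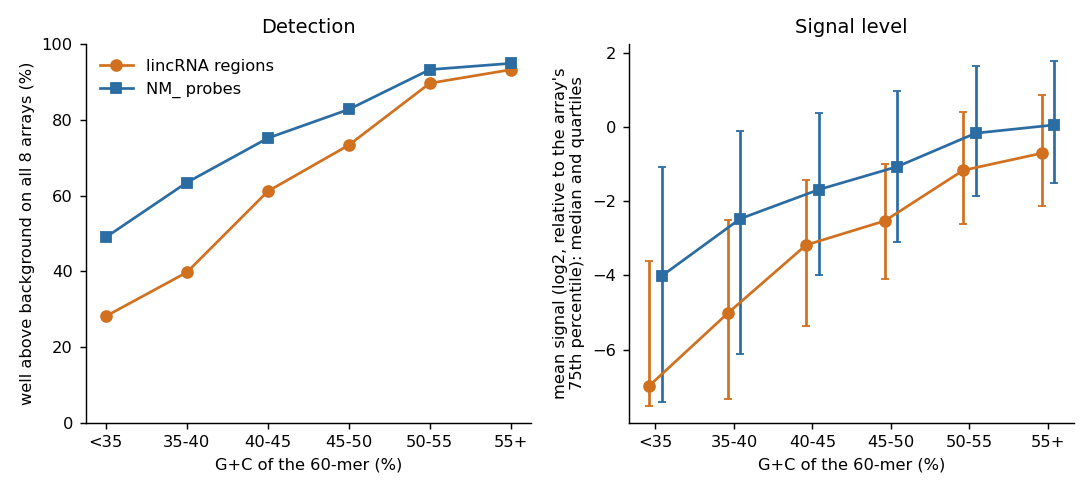
Share of probes well above background on all 8 arrays (left, percent) and their level (right, log2 relative to the array's 75th percentile; points are medians, bars the quartiles) by percent G and C of the 60-mer, for lincRNA regions (orange) and NM_ probes (blue). Both measures climb with G and C, from 28.1% to 93.2% for lincRNA regions, and the sets come closest in the richest class.

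The brightest regions, by mean level over their 60-mers, were often single 60-mers rich in G and C. A single F 60-mer in chr6:47700758-47717846 had a mean level of 5.98 (5.49 to 6.27 over arrays). The overlapping region chr6:47692090-47713542 was also among the brightest, at 4.45 over 3 F 60-mers. The F 60-mer of chr11:95573399-95587949, a region that holds a probe for the noncoding transcript B130006D01Rik, had 5.28, and the R 60-mer of chr7:129293609-129294172, whose nearest NM_ probe is that of the dynactin subunit Dctn5 at 1546 bases, had 5.23. In chr7:108209996-108216032 the mean over 3 60-mers of both strands was 4.81. In chr6:127111250-127142925 all 5 F 60-mers were bright, with a mean of 4.52; 1 of them shared a run of at least 30 bases with a probe of Tpi1, the glycolytic enzyme triosephosphate isomerase, so its signal cannot be assigned to the region alone. The last were chr2:177467500-177818050 at 4.38, which spans probes of 9 named genes including the zinc-finger gene Zfp931, and chr1:173468300-173489200 at 4.37. Each was within 0.56 of its WT level in CKO, 60-mer by 60-mer.

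Most regions lay away from messenger RNA probes, but not all were free of known genes. The median distance from a member to the nearest NM_ probe was 32583.5 bases, and 413 regions (12.2%) held a probe of an NM_ or a noncoding RefSeq (NR_) transcript. A run of at least 30 bases was shared with a gene's probe by 302 members (1.94%). The 161 members in 102 regions that match a RefSeq promoter window (GRCm38.p6) around a gene's start had a median G and C of 55%; 83.9% were on all 8 arrays, with a median level of -1.74. In 8 regions, 11 members shared at least 30 bases with 8 microRNA hairpins. The 3 that cover Mirlet7c-2 had levels of 0.04, -2.04 and -2.72, the second reading the strand opposite to the hairpin. The 60-mer that carries 41 bases of Mir410 had -0.68. A probe on a hairpin reads any RNA with those bases, not the mature microRNA.

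Levels of 60-mers of 1 region were more alike the closer they lay. For pairs on the same strand over 10 kb apart, levels correlated at 0.131 (Pearson). The value was 0.234 at over 1 and up to 10 kb, 0.381 at over 100 bases and up to 1 kb, and 0.427 up to 100 bases. It reached 0.688 where 1 to 29 bases were shared (71 pairs) and 0.866 where 30 to 59 were (113 pairs). Opposite strands gave 0.148, 0.250, 0.266 and 0.330 over the same distances, 0.457 at 1 to 29 bases and 0.707 at 30 to 59 bases shared (1458 pairs). The pairs share regions and arrays, and these values are descriptions across probes. In the same order the genotype difference correlated at 0.141, 0.0979, 0.281, 0.342, 0.587 and 0.717 on the same strand and at 0.0998, 0.153, 0.224, 0.300, 0.373 and 0.397 on opposite strands.

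**Figure D3:**
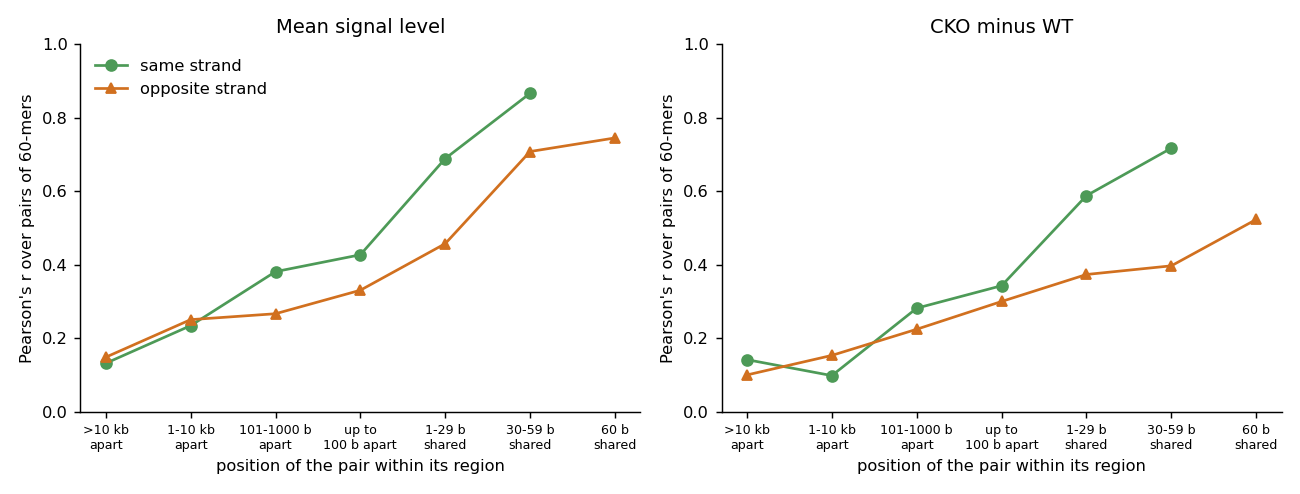
Pearson correlation between 60-mers of 1 region for the level (left) and for CKO minus WT (right), by distance or shared bases, for pairs on the same strand (green) and on opposite strands (orange). Correlations of the level rise as 60-mers approach and overlap, to 0.866 for same-strand pairs that share 30 to 59 bases; those of CKO minus WT start with 0.141 and 0.0979 on the same strand and end at 0.717.

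At 98 positions in 82 regions the array carried an F and an R 60-mer over the same 60 bases, 97 of them exact reverse complements. Both were well above background on all 8 arrays at 47 positions, 1 of them at 26 and neither at 25. F was brighter at 48 and R at 50, the median size of the difference was 1.04, and at 64 positions the brighter strand was the same on all 8 arrays. The difference exceeded 2 at 27 positions, and at 10 of these 1 strand was flagged on no array, so its level is only a bound. In the pair printed from chr13:112717680-112733330, R lay at 2.58 and was flagged on all 8 arrays, while F, of the same 45% G and C, lay at -7.43 and was flagged on none. The size of that difference is set by the background and is only a bound. In the pair from chr3:36280098-36347798, F at 3.74 and R at 3.31 were both flagged on all 8. The labels do not say whether amplification and labelling kept the strand, so the strand named by a probe is that of the probe's sequence.

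Most of the 1042 regions with both strands gave signal on each of them. Both strands had a 60-mer well above background on all 8 arrays in 916 regions (87.9%), F alone in 59, R alone in 46 and neither in 21. Since each strand had such a 60-mer in most regions, this share by itself does not show that the strands go together. Averaging the 60-mers of a strand, F exceeded R in 559 regions and R exceeded F in 483, and the median F minus R was 0.15 with quartiles of -0.85 and 1.23. That median depends on the probes used: it was -0.0081 with only 60-mers flagged on all 8 arrays (916 regions). The median size of the difference was 1.06, in 783 regions (75.1%) its sign was the same on all 8 arrays, and in 52 it exceeded 4. In 36 of these 52 the dimmer strand held a 60-mer flagged on no array, in 12 of them every one was such, and there the size is only a bound. F and R levels correlated at 0.629 (Pearson) and 0.606 (Spearman) across the 1042 regions, which partly overlap.

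By mean measured signal, background values included, the region furthest toward F was chr17:17462450-17488725, where 5 F 60-mers averaged 4.14 (3.86 to 4.42 over arrays) and 5 R 60-mers averaged -5.68 (-6.71 to -4.97). Of those R 60-mers 1 was flagged on no array and 2 on 2 arrays each, so their mean is only a bound. Base composition differed in the same direction but not throughout: the printed F 60-mer with 36.7% G and C lay at 3.76 and the printed R 60-mer with 35% at -7.62. Its neighbour on the chromosome, chr17:17315025-17460175, stood furthest toward R, with 3 R 60-mers at -0.11 and its 1 F 60-mer at -7.50 and flagged on no array. In chr7:69024136-69131056, 5 F 60-mers averaged 0.87 and 4 R 60-mers -7.38, 3 of the 4 flagged on none. In chr3:57414750-57427825 the 1 F 60-mer had -0.02 and the 1 R 60-mer, flagged on none, -7.58, although the pair starts only bases apart at 57418519 and 57418503. The 5 F 60-mers of chr19:7458725-7474825, which also holds a reverse-strand probe of Rab11b, a small GTPase of recycling endosomes, averaged 3.54 and its 1 R 60-mer -3.86. R was also the brighter in chr1:87374975-87412500 (R 1.90, F -5.05), chr6:117827499-117851478 (R -0.57, F -6.34) and chr4:21683562-21694350 (R -0.05, F -5.46), and the last 2 held F 60-mers flagged on none. The nearly identical region chr4:21683562-21694344 did not share this lean toward R. Its F 60-mers lay at 1.37, -0.63, -7.51, -2.83 and -0.84, and its R 60-mers at -4.54, -1.46, -2.98, -1.12 and 0.03. In most of these regions F and R 60-mers sit at different positions, so strand and position are not separated.

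The check of the knockout came first. Ctcf itself, 1 probe, had levels of -1.11, -1.75, -1.47 and -1.15 in WT and -2.56, -2.42, -1.96 and -2.02 in CKO. The groups did not overlap, and CKO was lower by 0.87 (limma, unadjusted p = 0.00325, adjusted p = 0.738); the position of this probe relative to the floxed exons was not examined. Excitatory neuron markers were well above background on all 8 arrays for 6 of 6 genes, but so were 5 of 5 interneuron, 4 of 5 astrocyte, 5 of 6 microglial, 3 of 3 endothelial and 2 of 2 choroid plexus markers; Gja1, the astrocyte gap junction gene, was flagged on none, at a WT mean of -7.34. Ttr, the choroid plexus transthyretin, lay at 0.92 to 2.44 in WT and 2.50 to 3.51 in CKO. What part such cells have in the lincRNA levels was not tested.

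In the comparison of CKO with WT no lincRNA region passed the test. Of 12214 members well above background on at least 4 arrays, 0 had an adjusted p under 0.05 (limma, Benjamini-Hochberg over all 44316 probes tested), as was so for 0.0% of all probes. The smallest adjusted p among members was 0.187. It belonged to a member flagged well above background on 4 WT arrays and 0 CKO arrays. That member entered the test through the WT arrays alone, so a higher WT level follows from the filter. Its CKO level is only a bound, and no conclusion is drawn from this p. At an unadjusted p under 0.05, 105 members (0.860%) were higher in CKO, against 2.12% of all probes, and 558 (4.57%) were lower, against 3.21% of all probes. The groups did not overlap, with CKO higher, for 79 members (0.647%; all probes 1.71%), and with CKO lower for 238 (1.95%; all probes 1.56%). NM_ probes leaned the other way, with 717 higher and 516 lower at an unadjusted p under 0.05.

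That lean depends on how the arrays are scaled. Members at an unadjusted p under 0.05 were 168 higher and 364 lower when arrays were scaled to their median, 171 and 317 after quantile normalization, 171 and 325 after normexp background correction, and 243 and 183 in the authors' deposited values, where the split turns. The median over all tested probes was itself -0.10 in the main scaling and 0.05 with median scaling. Relative to NM_ probes the member median was lower in each setting. The member median was -0.21, with 9548 of 12214 (78.2%) below 0, and the NM_ median 0.03. The gap of -0.24 remained below 0 in 23 of 23 alternative settings, between -0.40 and -0.05. The gap was nearest 0 within slide 3. Without CKO 3 the member median was -0.09, within slide 2 it was -0.18 and within slide 3 -0.06. F and R members had medians of -0.21 and -0.22.

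The difference between genotypes varied with the level. All tested probes were put into 10 classes of equal size by mean level. In the dimmest the member median was -0.59 and the NM_ median -0.50, and in the brightest they were 0.04 and 0.20. After quantile normalization the member medians lay between -0.18 and -0.05 and the NM_ medians between -0.03 and 0.09. In each class and under both scalings the members' median was the lower of the pair. Members also varied more within a group, with a median within-group SD of 0.392 against 0.313 for NM_ probes, and in each class of level their SD was the larger. By G and C the member median stayed between -0.25 and -0.17 over the 6 classes, while that of NM_ probes went from 0.17 in the poorest class to -0.01 in the richest.

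**Figure D4:**
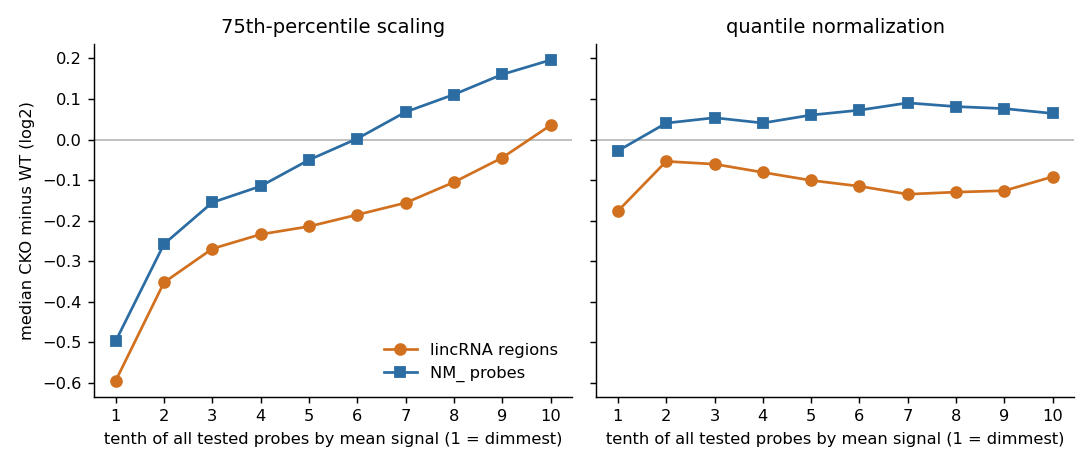
Median CKO minus WT (log2) in 10 classes of mean level, dimmest to brightest, for lincRNA regions (orange) and NM_ probes (blue), with 75th-percentile scaling (left) and quantile normalization (right). The slope from -0.59 to 0.04 for lincRNA regions on the left is nearly flat on the right, and lincRNA regions lie under NM_ probes in all 10.

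Members nearer to a messenger RNA probe differed less. Under 1 kb from the nearest NM_ probe the member median was -0.08, at 1 to under 10 kb -0.17, at 10 to under 100 kb -0.22 and from 100 kb up -0.26. The member's difference correlated with its neighbour's at 0.307 (Pearson, 450 pairs) in the nearest class and at 0.0558, 0.0242 and 0.00286 in the others, as a description across probes that share arrays. The median level also fell off along this order, from -1.85 to -2.99.

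The 60-mer with the smallest p among those flagged on all 8 arrays and higher in CKO lay at 1 locus on chromosome 6, inside chr6:116123643-116124550 and the longer chr6:116092274-116144199. There 8 60-mers, 3 F and 5 R between positions 116123819 and 116124200, each had a higher mean in CKO, by 0.70 to 1.16 (median 0.85). The groups did not overlap, with CKO higher, for 4 of them (all probes 1.71%). These 4 are the ones that were named for non-overlapping groups, so that count restates the choice. The printed F 60-mer had levels of 3.47, 3.83, 3.38 and 3.94 in WT and 4.69, 4.59, 5.05 and 4.86 in CKO. All CKO samples were above all WT samples, with means of 3.66 ± 0.269 and 4.80 ± 0.203 (SD, n = 4), a difference of 1.14 (SE 0.191; limma, unadjusted p = 0.000219, adjusted p = 0.510). The printed R 60-mer, which shares 43 of its bases, had 3.91, 4.23, 4.09 and 4.26 in WT and 4.86, 4.51, 4.84 and 5.09 in CKO, a difference of 0.70 (adjusted p = 0.738, limma). An R 60-mer at 116124141 had 1.62, 1.46, 1.58 and 2.31 in WT and 2.82, 2.36, 3.03 and 3.41 in CKO. Here too the groups did not overlap, at a difference of 1.16. An F 60-mer at 116124099 had a difference of 0.79.

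This stretch carries a probe of H2afz at chr6:116124453-116124512. H2afz encodes the histone variant H2A.Z, and its other probe on the array lies on chromosome 3, at chr3:137529827-137529886. Both were higher in CKO too, by 1.02 on chromosome 3 (SE 0.219; limma, unadjusted p = 0.00126, adjusted p = 0.738) and by 0.69 on chromosome 6. Signal of near-identical copies cannot be told apart on these probes. The other 10 60-mers of the longer region, at positions 116142362 to 116143695, had differences of -0.33 to 0.18, 3 of them above 0. At the locus all 8 stayed higher in CKO in all 23 alternative settings (2 of 2 in the one that keeps only the brightest 60-mer of a name), at 0.52 to 1.35. For the 4 with groups that did not overlap, leaving out or grouping arrays could not turn the sign, so this is not separate support.

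Of the regions named for a lower 60-mer, chr4:21683562-21694344 held the most 60-mers at an unadjusted p under 0.05, and it is described with the nearly identical chr4:21683562-21694350. They hold 15 60-mers, of which 12 were tested, 5 F and 7 R, and all 12 were lower in CKO, by a median of -0.59 and from -1.60 to -0.16. At an unadjusted p under 0.05 and lower were 10 of the 12 (all probes 3.21%), and 9 had groups that did not overlap (all probes 1.56%). The region was named for 1 of them and then picked for its count at an unadjusted p under 0.05. High shares here follow from that choice and are not separate support. The R 60-mer at 21684365 had -0.70, -0.80, -0.74 and -1.06 in WT and -1.46, -1.32, -1.43 and -1.47 in CKO. The WT samples were all above the CKO samples, by 0.59 (SE 0.150; limma, unadjusted p = 0.00349, adjusted p = 0.738). The regions enclose a probe of Tstd3, a gene of the thiosulfate sulfurtransferase-like family, whose own difference was -0.59 (SE 0.182; limma, unadjusted p = 0.00992, adjusted p = 0.738). Every tested 60-mer there stayed lower in all 23 alternative settings. For the 9 with groups that did not overlap, leaving out or grouping arrays could not turn the sign, so this is not separate support.

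**Figure D5:**
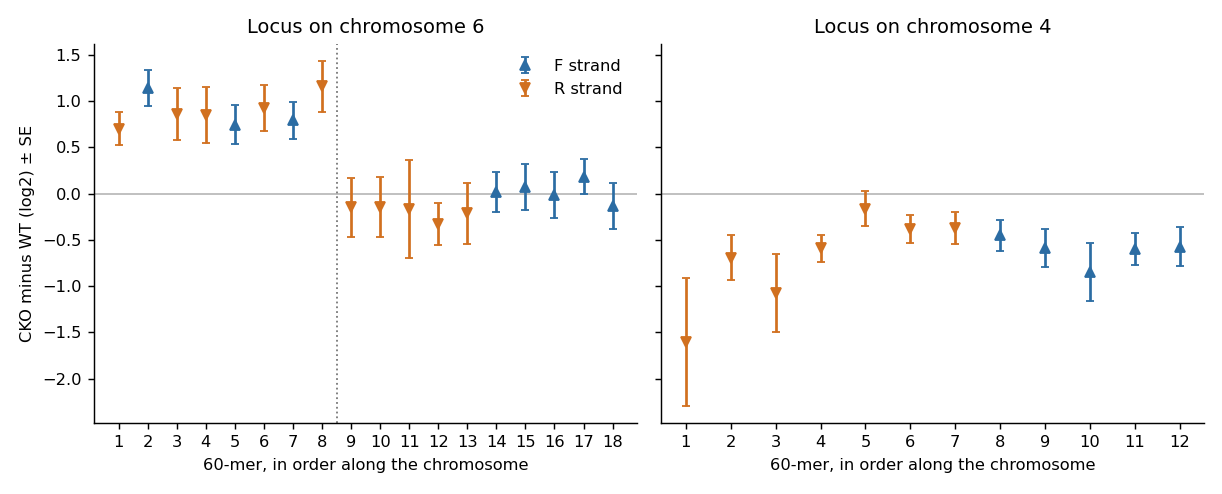
CKO minus WT (log2, points, with SE as bars) of each tested 60-mer in order along the chromosome, at the chromosome 6 locus (left; 8 60-mers before the dotted line lie in the stretch with the H2afz probe, 10 after it outside) and the chromosome 4 locus (right; 12 60-mers), F in blue and R in orange. The first 8 on the left lie at 0.70 or above and the next 10 around 0, and all 12 on the right lie below 0.

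Among the other 60-mers named for a small p and non-overlapping groups, neighbours in the region often leaned the same way. In chr17:24152225-24169870 the printed R 60-mer had 2.34, 2.45, 2.58 and 2.74 in WT and 3.58, 3.35, 4.07 and 3.56 in CKO. The groups were apart by their means of 2.53 ± 0.172 and 3.64 ± 0.307, a difference of 1.11 (SE 0.196; limma, unadjusted p = 0.000319, adjusted p = 0.615). Each of the 10 60-mers of that region had its higher mean in CKO (median difference 0.37), while Prss27, a serine protease gene 13836 bases away, had -0.06. The R 60-mer of chr10:120069727-120136259 was dim, at -4.57 in WT and -3.73 in CKO, and 1 of the 2 tested 60-mers of its region was higher.

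Downward, the printed F 60-mer of chr14:61252837-61310872 had 0.24, 0.32, -0.08 and 0.41 in WT and -0.99, -0.77, -0.50 and -0.82 in CKO. All CKO values were below all WT values, a difference of -0.99 (SE 0.178; limma, unadjusted p = 0.000380, adjusted p = 0.674), and the other tested 60-mer of the region had -0.65. Spata13, a guanine nucleotide exchange factor gene 72079 bases away, had -0.81. In chr1:121982840-121983386 the R 60-mer had -0.80 and 3 of 3 were lower. The F 60-mer of chr1:162933979-162944379 had -0.93, with 8 of 8 tested lower in the region. That of chr19:6268793-6276607, on R, had -1.22, with 8 of 9 lower, and that of chr1:15839444-15840383, on R, had -0.78, with 3 of 3 lower. Since 78.2% of tested members lay below 0, such counts below 0 are common. The 12 60-mers named for the genotype had adjusted p values of 0.510 to 0.738.

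Some members were flagged well above background in 1 genotype only. In all 4 WT and no CKO samples were 12 members (0.0769% of the members), and in all 4 CKO and no WT samples 0; NM_ probes numbered 19 (0.0711%) and 1 (0.00374%). The shares of members and NM_ probes in the WT direction were nearly the same. Such 60-mers were chosen by these flags and were tested through the WT arrays alone, so a higher WT level follows from the choice. Their CKO level is only a bound. It was taken as the mean over CKO arrays of the dimmest signal well above background, or the probe's own where higher. The folds that follow hold for the main processing only. On that footing WT was at least 2.66-fold higher for an F 60-mer of chr4:118723941-118757032, whose 4 WT levels were -4.70, -3.77, -3.21 and -4.58. It was at least 2.37-fold higher in chr13:94183152-94184073, 8888 bases from the probe of Homer1, a postsynaptic scaffold gene with a difference of 0.27. It was at least 2.36-fold in chr1:69531191-69570566, 2.27-fold in chr10:87541696-87547421, 2.24-fold in chr2:176134150-176152575 and 2.17-fold in chr12:52944867-52971992. The measured log2 difference shrank to -0.96 in the last without CKO 1 and to -0.95 in the chromosome 2 region without CKO 4, both under the stated bound, and with normexp background correction the 6 lay between -0.30 and -0.11. None had an adjusted p under 0.732 (limma). Singled out after its values were seen, the F 60-mer of chr10:81477217-81479975, of 20% G and C, had the smallest p of all members: -4.89, -4.61, -4.79 and -5.03 in WT against -6.74, -5.87, -6.53 and -6.54 in CKO (limma, adjusted p = 0.187). It was flagged on 4 WT arrays and 0 CKO arrays. This member too was tested through the WT arrays alone, and its CKO level is only a bound.

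The balance between the strands of a region, F minus R on each array, cancels the scaling of the array. In 982 regions with both strands tested, 0 had an adjusted p under 0.05 (limma over the 982, 0.0%; smallest adjusted p = 0.925), and 36 (3.67%) had an unadjusted p under 0.05, with 22 balances shifted toward F in CKO and 14 toward R. The median shift was 0.00, with quartiles of -0.16 and 0.15. In chr11:3538125-3554450, which holds Tug1, a conserved lincRNA of brain and retina, F minus R was 2.59, 2.84, 2.75 and 2.81 in WT and 3.34, 3.09, 3.46 and 3.25 in CKO. The groups did not overlap, and the shift was 0.54 (limma, unadjusted p = 0.00335, adjusted p = 0.925). Over the alternative settings that do not leave 1 array out, the shift ran from 0.29 to 0.61. The tested 60-mers of that region averaged 0.15 on F and -2.87 on R. F minus R does not cancel a genotype difference that varies with the level. There 6 of 10 F 60-mers were higher in CKO and 4 of 4 tested R 60-mers were lower. Tug1's own probes had a difference of 0.19. The balance shifted by 0.96 in chr19:29582018-29596693 and by 1.33 in chr2:25182970-25188091, each with 1 R 60-mer that was not flagged on all 8 arrays. Toward R it shifted by -0.58 in chr6:67155508-67216941, -0.61 in chr14:103751075-103769725 and -1.05 in chr8:108098325-108110775. The last had the opposite sign, 0.13, with only 60-mers flagged on all 8 arrays.

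Named noncoding RNAs with probes of their own were set beside the regions: 16 of 18 were measured, 15 of them on all 8 arrays, 8 lay above and 8 below their WT mean in CKO (median -0.01), 1 had an unadjusted p under 0.05 and 0 passed the test (limma). Meg3, the imprinted lincRNA of chromosome 12, had a WT mean of 2.69 and a difference of 0.14. Malat1, a nuclear lincRNA, had a WT mean of -0.29 and a difference of -0.10. Most of these named RNAs were brighter than the median lincRNA region, with Dlx6os1, at -3.75, the 1 of the 16 below it in WT.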

How the data were processed

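The deposited scanner files hold, per the file headers, spot intensities of 8 one-colour Agilent arrays; their processed intensity is background-subtracted and detrended by Feature Extraction (version 11.5 per the submitters' processing notes). The authors' deposited series values are intensities of the same spots on a linear scale, with some blank cells and array medians of 1263 to 1987; how they were made and whether they were scaled between arrays is not given in the sources used here, and they served as an alternative. Here log2 of the processed intensity minus the array's 75th percentile was taken, outlier-flagged spots were left out, and probes flagged as well above background by 4 or more of the 8 arrays were fitted with limma 3.58.1 (R 4.3.3; two-sided, Benjamini-Hochberg over all 44316 probes, threshold 0.05). The test was checked on simulated data with normal noise drawn independently for each probe and array. In the real data arrays of 1 slide were correlated, at 0.404, so recovery there may differ. Of 100 probes changed by 1 on the log2 scale it recovered 15, and of 100 changed by 2 it recovered 67. For the strand balance it recovered 8 of 20 and 20 of 20. Under such noise most changes of 1 would therefore be missed. The number of arrays limits the precision.

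Members and lists were chosen with earlier results of these data known. Named were, in each direction, the 6 members with the smallest p among those flagged on all 8 arrays with non-overlapping groups; up to 6 flagged in 1 genotype only; the 8 brightest regions; the 4 largest strand differences each way; the 3 smallest p each way for the strand balance; and Ctcf. Of 18 noncoding RNAs counts and 2 examples are given. No p is given for a median or share over the members. Alternatives covered scaling, background correction, filter, slide, sex, replicate number and each array left out. One marker list is not reported here.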

Additional observations from a re-analysis of the deposited data

Results flagged for a closer look

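Of 66 groups of 4 samples examined, 4 held a sample far from the other 3 by Dixon's test; chance alone gives about 1 in 20. The median level of the lincRNA members was -2.95 in WT 4, against -2.47 to -2.37 in the other WT samples. In the 60-mer of chr19:6268793-6276607 at 6275928, WT 3 lay at -1.72 and the other WT samples at -2.23 to -2.17. In that of chr12:52944867-52971992 at 52966982, WT 1 lay at -4.78 and the others at -4.23 to -4.16. The strand balance of chr2:25182970-25188091 was 1.36 in WT 4 and 0.71 to 0.80 in the others.

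Outside chromosomes 1 to 19, 577 probes of the same form lie on the X chromosome, and 60.3% of them were well above background on all 8 arrays, far over the share of negative control spots on any array. Per array the share was 63.4% to 76.3%. Of 424 tested, 315 (74.3%; all probes 60.6%) were lower in CKO, with a median of -0.18. At an unadjusted p under 0.05 were 4 higher (0.943%; all probes 2.12%) and 18 lower (4.25%; all probes 3.21%; limma).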

How the results depend on the processing

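The members' median difference between genotypes was below 0 in all 23 alternative settings: -0.34 to -0.09 with an array left out, nearest 0 without CKO 3, and -0.24 to -0.04 otherwise, nearest 0 in the authors' values. With slide as a fixed block it was -0.13, as a random block -0.16. The difference in the share well above background was -5.37 to -2.33 points with an array left out and -4.91 to -2.72 otherwise. All 18 named 60-mers kept their direction in 394 of 394 settings, none past the threshold, but the sizes of 12 moved by over 1.5 times. They were named for groups that do not overlap or for flags in WT alone. Where groups do not overlap, leaving out or grouping arrays cannot turn the sign. The count of kept directions largely follows from that choice and is not separate support. Normexp took the 6 flagged in WT only from between -1.93 and -1.17 to between -0.30 and -0.11; quantile normalization took those of chr1:69531191-69570566, chr2:176134150-176152575 and chr12:52944867-52971992 to -1.04, -0.65 and -0.78.

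Counts at an unadjusted p under 0.05 (105 higher, 558 lower) moved by over 1.5 times in many settings, and the cause was not tested. Higher and lower were 168 and 364 with median scaling, 171 and 317 with quantile normalization, 171 and 325 with normexp, 243 and 183 in the authors' values, 57 and 256 within slide 2, and 205 and 297 within slide 3. With only the brightest probe of each name (fewer probes tested) they were 35 and 127. With quantile normalization and slide together, chosen after seeing the data, 237 were higher and 463 lower. With 1 array left out, 62 to 142 were higher (62 without CKO 3, 64 without WT 1) and 266 to 1506 lower. The lower count was 1506 without WT 4, 1080 without CKO 2, 266 without WT 3, 277 without WT 1, 315 without CKO 3 and 356 without WT 2. Same-numbered samples did not deviate together (correlations -0.39 to 0.34), and with the replicate number as a block 67 were higher and 428 lower.

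With no filter on dim probes, 1 member passed (adjusted p = 0.0447, limma), the R 60-mer of chr2:80323450-80323802, flagged on 1 array only. In the other 22 settings 0 members passed; with normexp 5 probes passed in all. The median F minus R was 0.072 with normexp, -0.0081 with 60-mers flagged on all 8 arrays and 0.23 with overlapping positions left out. The strand balance of chr8:108098325-108110775 was 0.13 with 60-mers flagged on all 8 arrays, and 0 balances passed in 18 of 18 settings. Dim 60-mers varied most: the median within-group SD was 0.992 in the dimmest class of members and 0.243 in the brightest.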
